A study of Mus musculus with 12 samples.

Results

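Endothelial cells and the blood-retina barrier were followed in whole mouse retina through 10 genes: Pecam1, Cdh5, Cldn5, Kdr, Flt1, Tek, Tie1, Mfsd2a, Slc2a1 and Vwf. They were chosen by name; no measured value entered the rule, although earlier results of these data were known when the list was drawn up. All 10 were found among the 54146 Ensembl genes counted, and all 10 were among the 18628 genes that passed the filter on low counts and were tested. The level is given as CPM, the reads of a gene as a share of all reads of a library that were assigned to genes, scaled to a total of 10 to the sixth.

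The inner blood-retina barrier is built by endothelial cells of the retinal capillaries. Tight junctions close the gaps between these cells, vesicle traffic through them is kept low, and transporters bring in glucose and lipids. VEGF and angiopoietin receptors on the same cells keep the vessels alive and stable, while an outer barrier is formed by the retinal pigment epithelium (RPE).

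The study removed Otx2, a homeobox gene of photoreceptors, bipolar cells and RPE, from photoreceptors alone. The conditional knockout (cKO) mice carried Crx-CreERT2 and Otx2 flox/flox on a 129/SV background, so that Cre was driven by the Crx promoter and was active only after tamoxifen. They received 1 intraperitoneal injection of tamoxifen at P30, and 3 mice were killed at each of 2, 4 and 8 days after it, at P32, P34 and P38. The 3 controls were P30 mice, whose alleles the labels give only as control. The labels give no day after induction for them, although the same injection protocol is attached to every sample. The paper places its P30 samples at the time of injection. Vessels carried no deletion by design, and age, tamoxifen and the deletion changed together between P30 and every cKO age and cannot be told apart.

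Each library came from 1 mouse, and 29701483 to 60145034 reads per library were assigned to genes, so that 3 counts correspond to 0.0499 to 0.101 CPM. The raw counts behind the lowest members were 65 to 172 for Tie1, 58 to 184 for Cdh5 and 37 to 344 for Mfsd2a, against 4902 to 14508 for Kdr and 5400 to 15625 for Slc2a1. Otx2 itself was counted at 293 to 328 CPM in the controls and 307 to 377 CPM in the cKO mice; the deletion removes a single exon, and a count of the whole gene does not check it. Read from Xist and Y-linked genes, all 3 controls were female, while the cKO groups held 2, 1 and 1 females in order of age. Among the controls, 2 of 3 stood apart in vessel-wall and pigment genes. The summed level of 7 arterial smooth muscle markers was 199 and 216 CPM in P30 mice 2 and 3, but 36.6 CPM in P30 mouse 1 and 14.9 to 56.6 CPM in the cKO mice. The 11 RPE markers did not move as 1 list, and were split after their values were seen. The 5 pigment genes (Tyr, Tyrp1, Pmel, Dct and Mlana) summed to 816 and 665 CPM in the same 2 mice, 115 CPM in P30 mouse 1 and 28.9 to 127 CPM in the cKO mice. The other 6 (Rpe65, Lrat, Rgr, Rdh5, Ttr and Best1) summed to 83.6 CPM in P30 mouse 2, the lowest of the 12 mice, 245 CPM in P30 mouse 3, the highest, and 95.5 to 239.9 CPM in the cKO mice.

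Other defining markers of endothelial cells were present in every library. Esam, a junction protein of endothelial cells and platelets, lay between 10.5 and 24.2 CPM, and Egfl7, a factor secreted by vessels, between 3.21 and 10.7 CPM. Emcn lay between 1.21 and 2.91 CPM, Icam2 between 0.343 and 1.13 CPM and Erg, an endothelial transcription factor, between 0.150 and 1.01 CPM. The lowest Erg value belonged to P32 mouse 4.

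Levels of different genes can be compared only per length, as RPKM, the CPM divided by the exon length in kilobases. On that scale the mean over the 12 mice was 64.4 RPKM for Slc2a1 and 24.6 RPKM for Kdr. Then came Cldn5 at 4.67 RPKM and Flt1 at 4.58 RPKM, 2 neighbours whose values overlapped between mice. Mfsd2a averaged 1.73 RPKM, Tek 1.17 RPKM and Pecam1 1.05 RPKM. Cdh5 averaged 0.693 RPKM, Tie1 0.572 RPKM and Vwf 0.309 RPKM. The lowest Slc2a1 value of any mouse, 40.9 RPKM, was above the highest Kdr value, 30.3 RPKM, and the lowest Kdr value, 16.3 RPKM, was above every value of the other 8 genes. From Cldn5 down, each gene overlapped its neighbour in this order, except that the lowest Flt1 value (3.61 RPKM) was just above the highest Mfsd2a value (3.59 RPKM). Slc2a1 encodes GLUT1, which is also abundant in RPE and glia, so its level in whole retina is not that of the vessels alone. Kdr, at 24.6 RPKM, also stood far above Pecam1 (1.05 RPKM) and Cdh5 (0.693 RPKM). Which cells the Kdr and Flt1 reads came from was not tested.

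**Figure D1:**
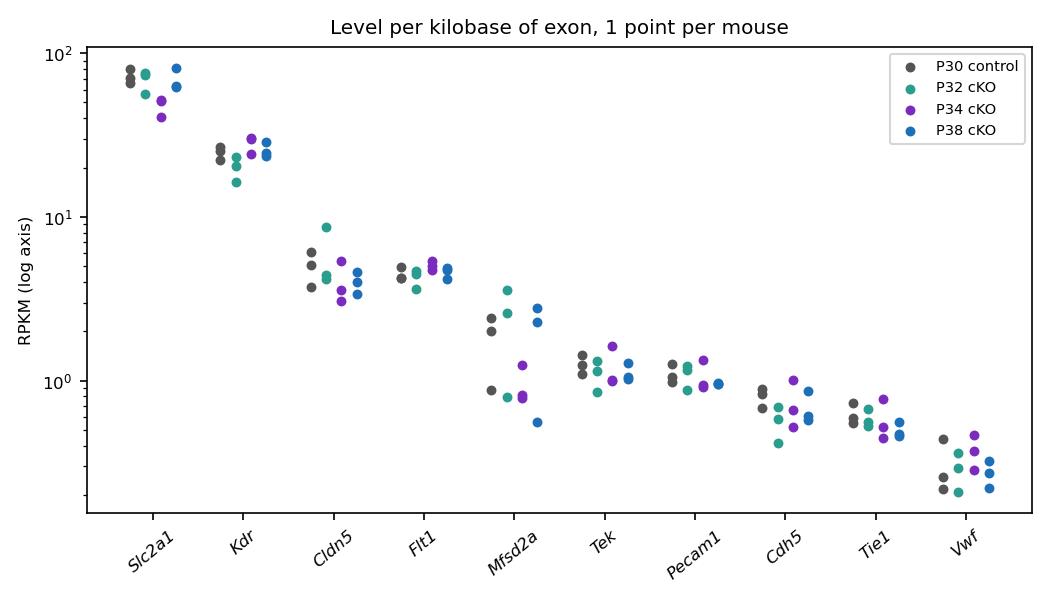
Level of each of the 10 genes in RPKM on a log axis, with 1 point per mouse and 4 colours for the groups. Slc2a1 (mean 64.4 RPKM) and Kdr (24.6 RPKM) lie apart above the other 8 genes, which run from 4.67 RPKM (Cldn5) down to 0.309 RPKM (Vwf).

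Sequence just upstream of the gene was available for 7 members (not Pecam1, Cdh5 or Vwf) as RefSeq promoter windows on GRCm38.p6. Windows of 4 are shown 5′ to 3′ on the strand of the gene and end at the annotated start of the gene: Slc2a1 and Kdr, the 2 genes whose ages separated most clearly, Flt1, the second VEGF receptor, and Tek, whose level followed the other members most closely. Capitals mark AGGAAG, a core of the ETS family of factors to which Erg belongs.
Slc2a1 (chr4:119108495-119108710, + strand): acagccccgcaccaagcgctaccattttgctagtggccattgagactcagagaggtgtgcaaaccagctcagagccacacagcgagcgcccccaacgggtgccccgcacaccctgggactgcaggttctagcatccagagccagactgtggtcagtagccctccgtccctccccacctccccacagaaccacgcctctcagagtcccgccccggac
Kdr (chr5:75978459-75978705, - strand): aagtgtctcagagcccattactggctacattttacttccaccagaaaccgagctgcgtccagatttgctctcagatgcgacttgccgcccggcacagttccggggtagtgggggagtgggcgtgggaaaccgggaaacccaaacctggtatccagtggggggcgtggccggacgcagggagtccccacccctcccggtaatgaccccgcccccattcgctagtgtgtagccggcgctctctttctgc
Flt1 (chr5:147726012-147726261, - strand): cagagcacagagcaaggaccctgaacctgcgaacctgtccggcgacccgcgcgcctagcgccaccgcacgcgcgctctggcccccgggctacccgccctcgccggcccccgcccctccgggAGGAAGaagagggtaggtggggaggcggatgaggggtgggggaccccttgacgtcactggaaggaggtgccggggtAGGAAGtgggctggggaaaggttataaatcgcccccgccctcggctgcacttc
Tek (chr4:94739039-94739288, + strand): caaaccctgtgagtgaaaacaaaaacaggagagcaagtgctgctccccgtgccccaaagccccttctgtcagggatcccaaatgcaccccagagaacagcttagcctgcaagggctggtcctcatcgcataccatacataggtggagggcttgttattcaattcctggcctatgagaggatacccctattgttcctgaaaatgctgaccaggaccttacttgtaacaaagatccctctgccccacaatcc

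AGGAAG, searched on both strands in the 250 bases before the RefSeq start, was found in 2 of 7 member windows, Flt1 and Tie1. It was found in 29.5% of 32851 windows of all genes. In Flt1 it lay 48 to 53 and 124 to 129 bases before the start, on the strand of the gene. TAATCC, a core bound by OTX2 and its relative CRX, was in 0 of 7 member windows and in 6.25% of all windows.

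The first question was whether any of the 10 genes differed from P30 after the deletion. A gene was called when its log2 difference reached 0.5 in either direction and its p from edgeR's quasi-likelihood test, after Benjamini-Hochberg adjustment over all genes tested, was no more than 0.05. At P32, 0 of 10 members were called, where 0% of all genes were called lower and 0% higher. At P34, 0 of 10 were called, against 0.66% of all genes lower and 0% higher. At P38, 0 of 10 were called, against 0% lower and 0% higher. With the 9 cKO mice in 1 group, 0 of 10 were called, against 0.0537% lower and 0% higher. At an unadjusted p of 0.05 with the same fold limit, 1 of 10 was lower at P34 (Slc2a1) and 0 higher, where 5.42% and 0.854% of all genes were. By that rule 0 of 10 were past the limits at P32 (1.77% of all genes lower, 1.13% higher), at P38 (2.66% and 0.805%) and with the 9 cKO mice in 1 group (1.57% and 0.311%). DESeq2 called 1 member, Slc2a1, at P34, where it called 1.98% of all genes. It called 0 at P32 (0.134% of all genes), 0 at P38 (0.242%) and 0 with the 9 cKO mice in 1 group (0.248%).

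The median of their log2 differences from P30 was -0.08 for the P32 mice, -0.07 for the P34 mice and -0.16 for the P38 mice, where the median of all genes tested was -0.01, -0.00 and -0.01. Of the 10, 8 had a negative value at P32 and 7 at P34 and at P38, where 51.5%, 50.2% and 51.8% of all genes did; the 3 comparisons share the same P30 mice. In bulk tissue, fewer endothelial cells and less RNA per cell cannot be told apart. Without P34 mouse 7 the median at P34 was -0.35.

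**Figure D2:**
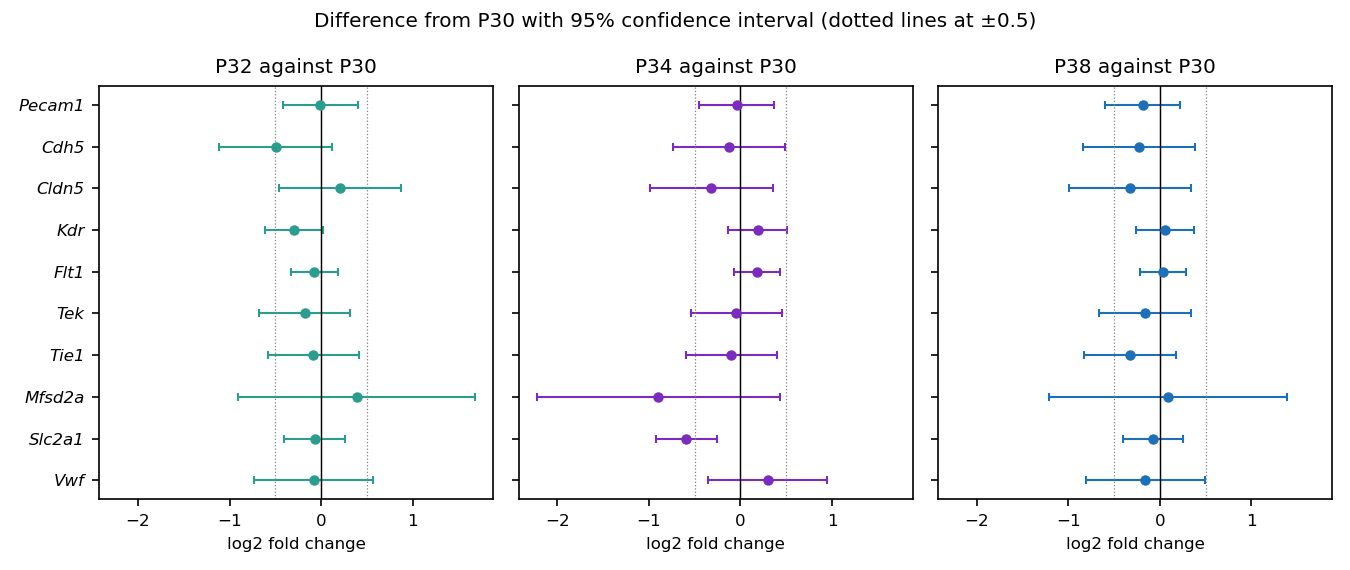
Difference of each gene from P30 on the log2 scale at P32, P34 and P38, with its 95% confidence interval and dotted lines at the fold limit of 0.5. Slc2a1 at P34 (-0.59) is the only point whose interval lies entirely on 1 side of 0, and Mfsd2a has the widest intervals.

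Slc2a1 (ENSMUSG00000028645, GRCm38 chr4:119108711-119137983, + strand), the glucose transporter of the barrier, was lowest at P34. It stood at 246, 232 and 282 CPM in the P30 mice, 265, 259 and 198 CPM in the P32 mice, 178, 143 and 183 CPM in the P34 mice, and 284, 222 and 217 CPM in the P38 mice. All 3 P34 mice lay below every mouse of the other 3 groups, which overlapped each other. The fold at P34 against P30 was 0.663 (log2 -0.59 ± 0.15 SE, 95% confidence interval -0.92 to -0.26, n = 3 and 3). It did not pass the edgeR quasi-likelihood test (unadjusted p = 0.00221, adjusted p = 0.162). In the same contrast 9.67% of all genes had all 3 P34 mice below all 3 controls. It was called under 2 other ways of processing: DESeq2 gave log2 -0.59 with an adjusted p of 0.0200, and scaling by library totals alone gave log2 -0.64 with an adjusted p of 0.0483 in edgeR, where the median of all genes was -0.06 and 0.821% of all genes were called. Over its 20 alternatives the value lay between -0.67 and -0.49 and the adjusted p between 0.0200 and 0.357.

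The test between cKO ages showed the same group apart. Slc2a1 at P34 against P32 was -0.52 ± 0.15 SE on the log2 scale (edgeR adjusted p = 0.0963, lower in 3 of 3 mice), and at P38 against P34 it was 0.52 ± 0.15 SE (adjusted p = 0.480, higher in 3 of 3 mice). Neither passed. P32 and P38 differed from P30 by -0.07 each, with 95% confidence intervals of -0.40 to 0.26 at both ages. Among female mice alone the values were 232 to 282 CPM in the P30 mice, 198 and 259 CPM in the P32 mice, 183 CPM in the single P34 female and 217 CPM in the single P38 female, and with sex as a covariate the P34 value was -0.64 (adjusted p = 0.170). Of the RPE genes, whose cells also carry GLUT1, the 6 other than pigment genes summed to 132 to 214 CPM at P34 and 83.6 to 245 CPM at P30, and the 5 pigment genes to 37.4 to 53.5 CPM at P34 and 115 to 816 CPM at P30. The sum of 7 Muller glia markers was 3479 to 4049 CPM in the P34 mice and 3482 to 3731 CPM in the P30 mice. The sum of 6 ciliary body and ciliary margin markers was 12.8 to 19.5 CPM in the P34 mice, 130 to 143 CPM in the P30 mice and 60.8 to 153 CPM in the other cKO mice, so this sum was also lowest in the 3 P34 mice. Pde6a is a phosphodiesterase of rods, which carry GLUT1 too. It was at 3143 to 3643 CPM in the P34 mice and 2327 to 2812 CPM in the P30 mice. It was at 1362 to 2429 CPM in the P32 mice and 2975 to 4296 CPM in the P38 mice. Pde6a was thus above the controls at P34, where Slc2a1 was lower, and at P38, where Slc2a1 overlapped the controls. The part of ciliary or rod cells in the Slc2a1 values was not tested.

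Mfsd2a (ENSMUSG00000028655, chr4:122946850-122961188, - strand), a lipid transporter that holds back vesicle traffic through barrier endothelium, had the highest coefficient of variation of the members among the P30, P32 and P38 mice (45.3%, 60.8% and 62.1%), but not among the P34 mice (26.9%). The P30 mice had 5.43, 1.96 and 4.55 CPM. The cKO mice had 8.07, 5.82 and 1.80 CPM in the P32 mice, 2.79, 1.84 and 1.76 CPM in the P34 mice, and 6.24, 5.14 and 1.26 CPM in the P38 mice. The groups at P30, P32 and P38 each held 1 mouse at or below 1.96 CPM beside 2 higher ones, and no cKO age was separate from the controls. Over the 12 mice its Pearson r with the mean of the other members was 0.05. Which cells its reads came from was not tested. The log2 fold change at P34 was -0.90 ± 0.61 SE (95% confidence interval -2.23 to 0.43, edgeR adjusted p = 0.639). With sex as a covariate, all 3 controls being female, it was -1.68 (edgeR adjusted p = 0.275).

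Kdr (ENSMUSG00000062960, chr5:75932827-75978458, - strand), the main signalling receptor for VEGF-A, was lowest at P32 and highest at P34. The controls had 229, 240.2 and 200.0 CPM. The cKO mice had 147, 186 and 211 CPM in the P32 mice, 274, 269.9 and 218 CPM in the P34 mice, and 214, 259.7 and 222 CPM in the P38 mice. Every P34 and P38 mouse was above every P32 mouse, while each cKO age overlapped the controls. Among female mice alone Kdr was at 200.0 to 240.2 CPM in the P30 mice and 186 and 211 CPM in the P32 mice. The single P34 female had 218 CPM and the single P38 female 222 CPM. Against P30 the log2 fold change was -0.30 ± 0.15 SE at P32 (edgeR adjusted p = 0.698), 0.19 ± 0.15 SE at P34 (0.691) and 0.06 ± 0.15 SE at P38 (0.965). Between cKO ages it was 0.49 ± 0.15 SE for P34 against P32 (95% confidence interval 0.17 to 0.81, adjusted p = 0.0973) and 0.36 ± 0.15 SE for P38 against P32 (0.04 to 0.67, adjusted p = 0.180). Neither passed. Aqp4, picked from 7 Muller glia genes after their values were seen, was also lower in every P32 mouse than in every P34 and P38 mouse. So was the rod gene Pde6a. Aqp4, a water channel of Muller glia, was at 74.9 to 113 CPM in the P32 mice, 126 to 135 CPM in the P34 mice and 119.9 to 141 CPM in the P38 mice. Pde6a was at 1362 to 2429 CPM in the P32 mice, 3143 to 3643 CPM in the P34 mice and 2975 to 4296 CPM in the P38 mice. Their part in the Kdr values was not tested.

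Counts between cKO ages are read against a wide background. At P34 against P32, 0 of 10 members were called, where 0.242% of all genes were lower and 0% higher. Of the 10, 1 was lower without overlap (Slc2a1, where 13.6% of all genes were) and 2 were higher without overlap (Kdr and Flt1, where 14.8% were). At P38 against P34, 0 of 10 were called, where 0% were lower and 0.199% higher, and Slc2a1 alone was higher without overlap, against 5.36% of all genes. At P38 against P32, 0 of 10 were called, where 0% were lower and 0% higher, and Kdr alone was higher without overlap, against 13.3% of all genes. With the unadjusted p, Slc2a1 was the 1 member lower at P34 against P32 (8.93% of all genes lower, 5.49% higher) and the 1 member higher at P38 against P34 (0.8% lower, 3.01% higher). At P38 against P32 it was 0 of 10 (6.23% lower, 5.68% higher). DESeq2 called Slc2a1 at P34 against P32, 1 of 10 members where it called 8.65% of all genes, and 0 members at P38 against P34 (0.774%) and at P38 against P32 (6.05%). Leaving out P32 mouse 6, the test of P34 against P32 called both Kdr (log2 0.61, edgeR adjusted p = 0.0236) and Slc2a1 (log2 -0.64, adjusted p = 0.0205), 2 of 10 members in a fit that called 14.3% of all genes. P32 mouse 6 had the highest Kdr and the lowest Slc2a1 of its group.

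Flt1 (ENSMUSG00000029648, chr5:147561604-147726011, - strand), a VEGF receptor that binds and withholds the ligand, had the smallest coefficient of variation over the 12 mice (10.3%). It stood at 57.2, 57.1 and 66.4 CPM in the P30 mice, 48.7, 60.2 and 62.7 CPM in the P32 mice, 67.8, 63.7 and 72.8 CPM in the P34 mice, and 56.2, 63.8 and 65.5 CPM in the P38 mice. The P34 mice were all above the P32 mice, but overlapped the other 2 groups. The log2 fold change at P34 was 0.18 ± 0.12 SE against P30 (edgeR adjusted p = 0.621) and 0.25 ± 0.12 SE against P32 (adjusted p = 0.188).

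Tek (ENSMUSG00000006386, chr4:94739289-94874976, + strand) encodes TIE2, the receptor for angiopoietins, and Tie1 (ENSMUSG00000033191, chr4:118471191-118490061, - strand) its partner receptor. Tek was at 5.17, 5.84 and 6.72 CPM in the P30 mice, 3.99, 6.20 and 5.40 CPM in the P32 mice, 7.68, 4.70 and 4.77 CPM in the P34 mice, and 4.97, 6.03 and 4.82 CPM in the P38 mice. Tie1 was at 2.71, 2.89 and 3.60 CPM in the P30 mice, 2.76, 3.28 and 2.61 CPM in the P32 mice, 3.81, 2.55 and 2.20 CPM in the P34 mice, and 2.33, 2.74 and 2.24 CPM in the P38 mice. For both genes every cKO age overlapped the controls, and P34 mouse 7 was the highest of all 12 mice. The 95% confidence intervals against P30 lay between -0.68 and 0.45 for Tek and between -0.82 and 0.41 for Tie1 over the 3 ages.

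Among the junction genes, Pecam1 (ENSMUSG00000020717, chr11:106654217-106750628, - strand) encodes CD31, an adhesion molecule of all endothelium. It was at 6.53, 6.08 and 7.82 CPM in the P30 mice, 5.46, 7.60 and 7.20 CPM in the P32 mice, 8.34, 5.83 and 5.65 CPM in the P34 mice, and 5.94, 5.96 and 6.01 CPM in the P38 mice. The P38 mice were all below the controls, 1 of 10 members where 7.96% of all genes were, with a log2 fold change of -0.19 ± 0.19 SE (edgeR adjusted p = 0.885). The sum of 5 red blood cell markers was also below the controls in these mice, at 21.6 to 30.4 CPM against 45.2 to 87.1 CPM, with 5 of 5 genes negative (median log2 -1.22) and 0 called. P32 mice 5 and 6 had 26.8 and 27.0 CPM. The part of this sum in the Pecam1 values was not tested.

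Cdh5 (ENSMUSG00000031871, chr8:104101625-104144511, + strand), the cadherin of endothelial adherens junctions, was at 2.87, 3.72 and 3.48 CPM in the P30 mice and 1.74, 2.46 and 2.91 CPM in the P32 mice. It was at 4.25, 2.18 and 2.78 CPM in the P34 mice and 2.40, 3.64 and 2.55 CPM in the P38 mice. The P32 group was the lowest, with 1 mouse within the range of the controls (log2 -0.50 ± 0.28 SE, edgeR adjusted p = 0.698).

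Cldn5 (ENSMUSG00000041378, chr16:18776847-18778262, + strand), the claudin that seals endothelial tight junctions, was at 8.67, 7.17 and 5.26 CPM in the P30 mice and 12.3, 5.94 and 6.26 CPM in the P32 mice. It was at 7.57, 4.31 and 5.08 CPM in the P34 mice and 4.76, 6.50 and 5.63 CPM in the P38 mice. The value of 12.3 CPM, in P32 mouse 4, was the highest of the 12 mice, and all cKO ages overlapped the controls. Against P30 its log2 difference came to 0.21 ± 0.30 SE at P32, -0.32 ± 0.31 SE at P34 and, again, -0.32 ± 0.31 SE at P38 (edgeR adjusted p = 0.818, 0.758 and 0.878).

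Vwf (ENSMUSG00000001930, chr6:125546774-125686679, + strand), the clotting factor stored in endothelial granules and also in platelets, was at 4.15, 3.47 and 7.07 CPM in the P30 mice, 3.36, 5.79 and 4.68 CPM in the P32 mice, 7.43, 4.56 and 5.99 CPM in the P34 mice, and 4.37, 5.21 and 3.53 CPM in the P38 mice. The groups overlapped, and the 95% confidence intervals against P30 reached from -0.81 to 0.94 over the 3 ages. Of the 5 platelet markers listed, 2 passed the filter on low counts, and their list summed to 1.63 to 3.99 CPM.

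**Figure D3:**
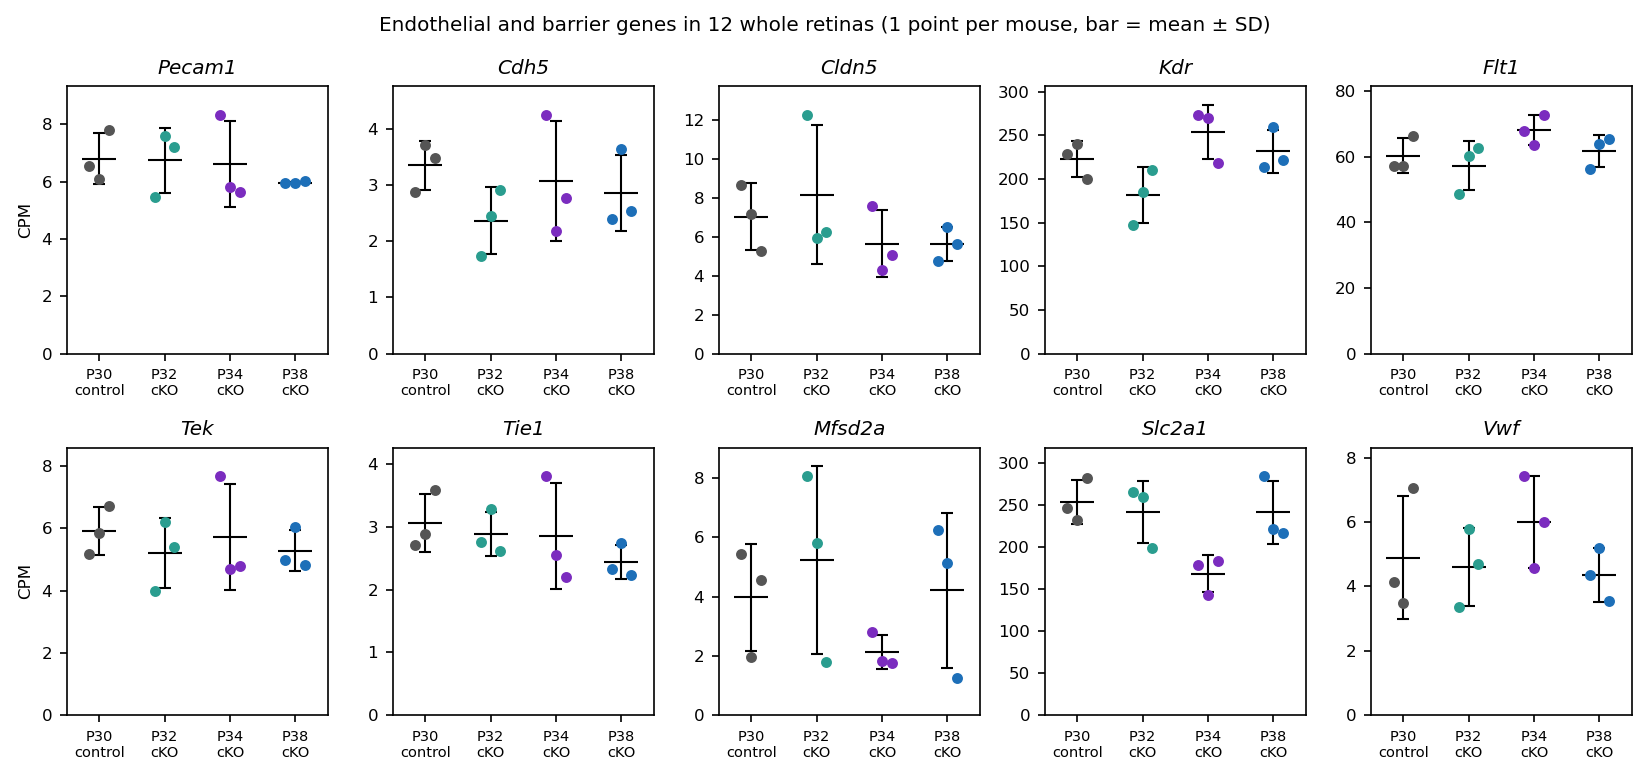
CPM of each gene in the 4 groups, with 1 point per mouse and bars for the mean ± SD (n = 3). Slc2a1 at P34 (143 to 183 CPM) lies below all other mice, the P32 mean is the lowest for Kdr, and the remaining genes overlap the controls at each age except Pecam1 at P38.

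The members did not vary as 1 block across mice. Over the 12 mice, the log2 CPM of Tek had a Pearson r of 0.92 with the mean of the other 9 members, each standardized. This r was 0.79 for Tie1, 0.77 for Pecam1, 0.70 for Cdh5 and 0.66 for Vwf. It was 0.16 for Flt1, 0.10 for Kdr, 0.05 for Mfsd2a, -0.03 for Slc2a1 and -0.12 for Cldn5. The pairs among Tek, Tie1, Pecam1, Cdh5 and Vwf, which are set apart here by these same values, ran from 0.50 (Cdh5 and Tie1) to 0.85 (Tek with Pecam1 and with Cdh5). P34 mouse 7 had the highest CPM of all 12 mice for each of these genes, and P32 mouse 4 the lowest for all but Tie1. The r values were not computed without these mice. Mfsd2a and Slc2a1, the 2 transporters, had an r of 0.70, and Kdr and Slc2a1 had -0.63. These values describe 12 libraries that share their groups, and values from 1 library share its depth and dissection.

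**Figure D4:**
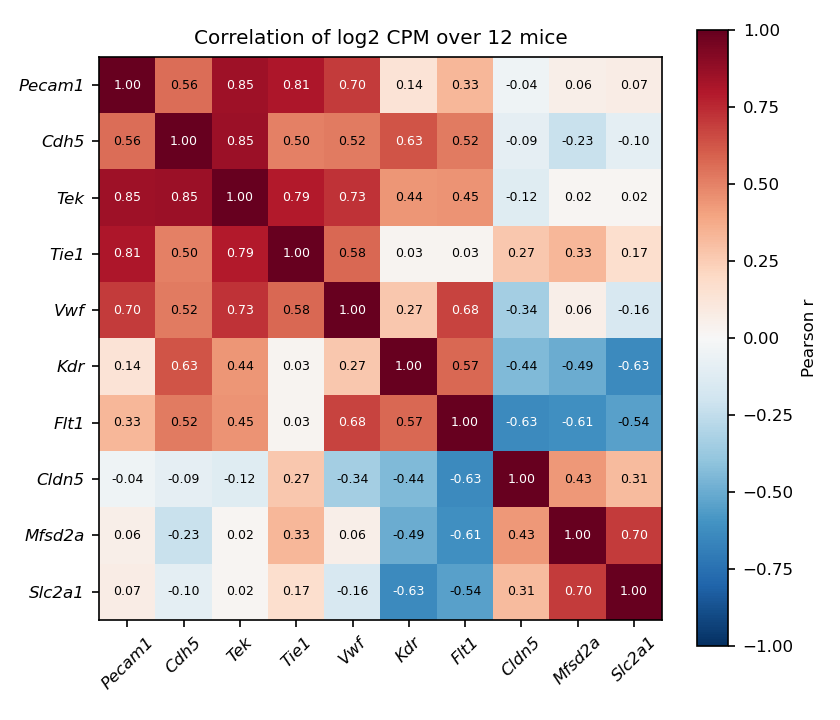
Pearson r of log2 CPM between the 10 genes over 12 mice, from blue (-1) to red (1). Pecam1, Cdh5, Tek, Tie1 and Vwf form a block of values from 0.50 to 0.85, and Kdr and Flt1 lie opposite to Cldn5, Mfsd2a and Slc2a1.

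The genes most like the mean of the 10 members over the 12 mice were Robo4 (r = 0.91), Ifi203 (0.91), Rab31 (0.88), Anpep (0.86), Hist1h1d (0.85), Eng (0.85), Slc19a3 (0.84) and Spock1 (0.84). Robo4 and Eng are endothelial receptors, Anpep is a marker of pericytes and Slc19a3 a thiamine transporter. The median r over all genes tested was 0.03, and 23 genes were over 0.8, a count from which the members were not taken out. The summed level of 9 pericyte genes had an r of 0.77 with the member mean and that of 18 other endothelial genes 0.58, while the sum of arterial smooth muscle genes had 0.29.

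Other genes of vessels and of the barrier were counted in the same way at P34, the age with the most genes called. Of all genes, 0.66% were called lower there and 0% higher. Of 18 other endothelial genes, 0 were called (median log2 -0.13). The smallest p belonged to Clec14a, a vessel surface lectin, at 3.73 ± 0.688 CPM in the P30 mice and 1.36 ± 0.574 CPM at P34 (SD, n = 3; log2 -1.44 ± 0.30 SE, edgeR adjusted p = 0.0570). Next came Ushbp1 at -0.30 (adjusted p = 0.681). Of 11 junction genes 0 were called (median -0.17), the smallest p being those of F11r, which encodes JAM-A, at -1.06 (0.109) and of Cgn, which encodes cingulin, at -0.68 (0.324). Of 13 transporters 0 were called (median -0.05), led by the organic anion transporter Slc22a8 at -1.19 (0.237) and the efflux pump Abcc4 at -0.96 (0.255).

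A list of 6 genes of caveolar transcytosis and fenestrated endothelium had a median of -0.77 at P34. None was called, and 4 were lower at an unadjusted p of 0.05, where 5.42% of all genes were. These were Ehd2 (-0.76, edgeR adjusted p = 0.223), Cavin2 (-1.30, 0.268), Cavin1 (-1.06, 0.355) and Cavin3 (-0.77, 0.459), which coat or anchor caveolae. Cav1, the core protein of caveolae, was at 0.14, and Plvap, the diaphragm protein of leaky endothelium, at 0.04. Caveolar genes are also used by smooth muscle and ciliary epithelium, whose marker sums were lower in all 3 P34 mice than in all 3 controls; their part was not tested.

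Of 12 genes of the VEGF and angiopoietin pathway 0 were called at P34 (median -0.05). The smallest p were those of the ligands Pgf (-1.44, edgeR adjusted p = 0.318) and Vegfd (-1.13), with Vegfa at -0.32 (adjusted p = 0.540). Of 13 genes of the Norrin and Wnt pathway, which induces the barrier in retinal vessels, 0 were called (median -0.11), the Norrin receptor Fzd4 being at -0.23 and Adgra2, a co-activator of Wnt signals, at -0.27. Of 9 pericyte genes 0 were called (median -0.11), with Pdgfrb at -0.36 (adjusted p = 0.480) and Ndufa4l2 at -0.60. At P32 and P38, edgeR called 0 genes of these 7 lists. At P38, 16 of 18 other endothelial genes had a negative log2 difference (median -0.26) and 12 of 13 Norrin and Wnt genes did (median -0.11), where 51.8% of all genes were negative (median -0.01). In the same comparison 0 of 8 rod genes were negative (median 0.30). The medians of the other 5 lists at P38 were -0.17 for junctions, -0.14 for transporters, -0.16 for transcytosis, -0.11 for the VEGF and angiopoietin pathway and -0.13 for pericytes. At P32, 11 of 18 other endothelial genes were negative (median -0.12), and at P34 13 of 18 were (median -0.13). Of the Norrin and Wnt genes, 11 of 13 were negative both at P32 (median -0.09) and at P34 (median -0.11). Of all genes, 51.5% were negative at P32 and 50.2% at P34. All ages were compared with the same P30 mice. With the unadjusted p at P34, 1 endothelial, 3 junction, 2 transporter, 2 VEGF and angiopoietin, 0 Norrin and Wnt and 0 pericyte genes were lower, where 5.42% of all genes were. DESeq2, which called 1.98% of all genes at P34, called Clec14a, F11r, Slc22a8, Cavin2 and Ehd2.

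The list genes that were called at P34, where 0.66% of all genes were called lower and 0% higher, were markers of other tissues and cell types. Of 6 arterial smooth muscle genes tested 4 fell: Acta2 (-4.73, edgeR adjusted p = 0.0352), Myh11 (-4.56, 0.0389), Tagln (-3.51, 0.0280) and Myl9 (-2.06, 0.0313). Of 11 RPE genes 2 fell, the pigment genes Mlana (-4.42, 0.0316) and Tyrp1 (-3.73, 0.0316). The genes of the visual cycle and of transport did not follow them, with Rpe65 at 0.33 (0.849), Rgr at 0.22 (0.893) and Ttr at -0.07 (0.973). Of 6 ciliary genes 5 fell: Optc (-4.84, 4.23e-04), Cldn2, Otx1, Zic2 and Zic1 (-3.73 to -1.36). Mrc1, a macrophage receptor, was the 1 gene of 8 called among microglia and macrophages (-2.69, 0.0141). No gene was called among 7 Muller glia, 5 red blood cell, 2 platelet or 8 rod genes, of which Kcnj10 was at 0.39, Vim at -0.98, Alas2 at 0.28, Hbb-bt at 0.19, Gp1bb at -0.31, Itga2b at -0.17 and Pde6a at 0.42. Of the 12 calls, 10 were lost when at least 1 of the mice was left out, and leaving out 1 mouse at a time gave between 2 and 17 list genes called, with 3 left without P30 mouse 2, 3 without P30 mouse 3, and 3, 3 and 2 without P34 mice 7, 8 and 9. Optc and Cldn2 were called in all of these.

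**Figure D5:**
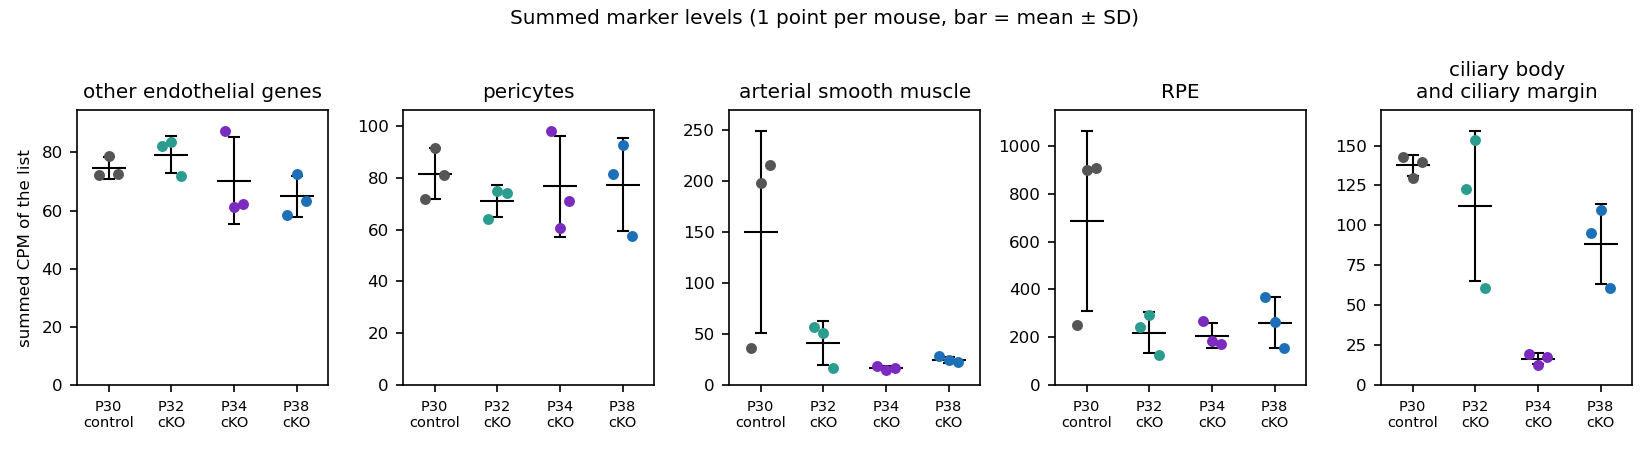
Summed CPM of 5 marker lists in the 4 groups, with 1 point per mouse and bars for the mean ± SD (n = 3). Pericyte sums overlap between P30 and every cKO age. For 2 lists, 2 P30 mice lie apart: arterial smooth muscle (199 and 216 CPM) and RPE (900 and 910 CPM, of which 816 and 665 CPM are the 5 pigment genes). The ciliary sum is lowest at P34 (12.8 to 19.5 CPM).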

How the data were processed

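Poly-A RNA of whole retinas, RPE RNA included, was sequenced from 12 mice as stranded libraries. According to the submitters' processing notes, the authors used bcl2fastq 2.17.1.14, STAR 2.5.3a on mm10 and HTSeq 0.6.1p1, and deposited 1 table of raw read counts per mouse. Reads that the tables assign to no gene stayed out of library sizes. Ensembl identifiers were matched to symbols through a GENCODE annotation of GRCm38, the same genome as mm10 (54079 of 54146 genes, 99.9%).

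Counts were filtered by group, scaled with TMM and fitted for all 12 mice with 1 mean per group in edgeR 4.0.16 (R 4.3.3). The 9 cKO mice against P30 were a separate fit with 2 groups. Each SE and 95% interval comes from the fit of its own comparison. DESeq2 1.42.0, other scalings and filters, sex as a covariate and leaving out each mouse were alternatives. CPM and RPKM use gene totals; RPKM uses the merged exon length of a later annotation than the authors'. The edgeR steps were tested on simulated data.

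No pair of libraries in a group agreed within sampling noise (chi-square per degree of freedom 14.2 to 179). The labels do not say how the mice relate, so p-values measure the spread between these mice.

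Members and lists were chosen with earlier results of these data known. All members are named. From each list, up to 5 genes called against P30 are named, or the 2 with the smallest p at P34, together with the 8 genes most correlated with the member mean; 1 gene that this rule names is not reported here. Cav1, Plvap, Cavin1, Cavin3, Vegfa, Aqp4 and the RPE genes other than Mlana and Tyrp1, and those DESeq2 called, were named after their values were seen.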

Additional observations from a re-analysis of the deposited data

Results flagged for a closer look

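Among the 9 cKO mice, Cldn5 in P32 mouse 4 (12.3 CPM) lay far above the next value of 7.57 CPM. Dixon's test of the gap against the range was applied to each of the 10 genes over these 9 mice and singled out this 1 value. Chance passes the limit in about 1 in 20 genes, and the limit was not corrected for the 10 genes tested. The other 2 P32 mice had 5.94 and 6.26 CPM. Mouse 4 was the only male of its group. Of its reads, 32.2% were not uniquely aligned, against 23.7% to 29.3% in the other 11 mice. The same mouse had the lowest Kdr (147 CPM), Flt1 (48.7 CPM), Cdh5 (1.74 CPM), Tek (3.99 CPM), Pecam1 (5.46 CPM) and Vwf (3.36 CPM) of all 12 mice and the highest Mfsd2a (8.07 CPM). Its red blood cell genes summed to 167 CPM, against 21.6 to 102 CPM in the other 11 mice, and its Plvap level was 12.8 CPM, against 5.22 to 7.90 CPM. Without it the Cldn5 log2 value at P32 against P30 was -0.21, in place of 0.21. The part of these values in the Cldn5 level was not tested.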

How the results depend on the processing

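Members called moved from 0 to 1 (Slc2a1) at P34 against P30 with library totals only, with the DESeq2 Wald test and with the unadjusted p, to 1 (Slc2a1) at P34 against P32 with the DESeq2 Wald test and the unadjusted p, and to 1 (Slc2a1) at P38 against P34 with the unadjusted p. Leaving out 1 mouse at a time gave 0 to 2 members at P34 against P32 (2, Kdr and Slc2a1, without P32 mouse 6) and 0 in the other comparisons. The median of the members ranged from -0.35 to 0.057 at P34 against P30, from -0.19 to 0.19 at P34 against P32 and from -0.21 to 0.11 at P38 against P34 when 1 mouse was left out; leaving out P34 mouse 7 gave -0.35, -0.19 and 0.11. No paired analysis was possible because the replicate numbers run from 1 to 12 through the groups and no number occurs in 2 groups.

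Members with small differences changed sign, in 88 of 1530 refits of a single gene, and none of these was called. Library totals only gave 0.027 (Pecam1, P32 against P30), -0.0303 (Kdr, P38 against P30), -0.039 (Flt1, P38 against P30), -0.0091 (Mfsd2a, P38 against P30), -0.00031 (Flt1, P38 against P32) and -0.091 (Tek, P38 against P32). DESeq2 Wald test gave 0.00325 (Pecam1, P32 against P30). Only the groups compared gave 0.017 (Pecam1, P32 against P30), 0.012 (Tie1, P34 against P32) and 0.023 (Slc2a1, P38 against P32). Sex as a covariate gave 0.00262 (Pecam1, P32 against P30), -0.092 (Mfsd2a, P32 against P30), -0.89 (Mfsd2a, P38 against P30) and 0.0074 (Cldn5, P38 against P34). No filter on low counts gave 0.00212 (Slc2a1, P38 against P32). Leaving out 1 mouse at a time changed the sign of the following log2 values. For P32 against P30 these ranges were Pecam1 -0.10 to 0.12, Tie1 -0.19 to 0.041, Slc2a1 -0.15 to 0.049, Vwf -0.28 to 0.27, Cldn5 -0.21 to 0.39, Flt1 -0.14 to 0.030 and Mfsd2a -0.064 to 0.80. For P34 against P30 these ranges were Pecam1 -0.25 to 0.057, Tek -0.32 to 0.080, Tie1 -0.37 to 0.038 and Cdh5 -0.44 to 0.072. For P38 against P30 these ranges were Mfsd2a -0.29 to 0.52, Kdr -0.034 to 0.12, Slc2a1 -0.20 to 0.0068, Vwf -0.35 to 0.20 and Flt1 -0.0059 to 0.11. For the 9 cKO mice against P30 these ranges were Cldn5 -0.29 to 0.058, Kdr -0.083 to 0.055, Mfsd2a -0.37 to 0.25, Vwf -0.16 to 0.38 and Pecam1 -0.15 to 0.026. For P34 against P32 these ranges were Tek -0.14 to 0.28, Pecam1 -0.24 to 0.062 and Tie1 -0.28 to 0.13. For P38 against P34 these ranges were Cldn5 -0.17 to 0.27, Pecam1 -0.24 to 0.058, Cdh5 -0.31 to 0.21, Tek -0.24 to 0.16 and Tie1 -0.37 to 0.040. For P38 against P32 these ranges were Tek -0.14 to 0.17, Mfsd2a -0.71 to 0.15, Slc2a1 -0.13 to 0.073 and Vwf -0.26 to 0.12. The cause was not tested.

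Counts over all genes moved more. At P34 against P30 the 123 calls became 298 with no filter, 369 with DESeq2, 229 with only the groups compared and 1168 with the unadjusted p, and 43 to 213 without 1 mouse. At P34 against P32 the 45 calls became 656, 1422, 11 and 2687, 92 with sex as a covariate, and 14 to 2726 without 1 mouse. At P38 against P34 the 37 calls became 115, 144, 71 and 709, and 8 to 58 without 1 mouse. The 0 calls at P32 and P38 against P30 became 23 and 18 with no filter and 25 and 45 with DESeq2, and reached 19 and 13 without 1 mouse. For P38 against P32 the 0 calls became 201 and 929, 4 with library totals and 1 with only the groups compared, with up to 1946 without 1 mouse. The 10 calls of the 9 cKO mice became 26 with no filter, 46 with DESeq2, 18 with library totals, 2 with the stricter filter, 0 with sex as a covariate, and 0 to 48 without 1 mouse. At an unadjusted p there were 540, 645, 2220 and 351 in these last 4 comparisons. Library totals moved the median of all genes to -0.11 at P34 against P32 and -0.14 at P38 against P32. The count of list genes called at P34, tried after the data were seen, was 12, with 8 in the robust fit, 20 with no filter, 22 with DESeq2 and 29 with the unadjusted p.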
